A study of Mus musculus with 8 samples.

Results

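The mouse mitochondrial chromosome holds 37 annotated genes, and all of them were followed in the frontal cortex of WT and HAR123-KO mice. The members were all rows of the count table placed on chromosome MT, 37 of 55536 genes, and they comprised 13 coding genes, 2 rRNAs and 22 tRNAs. HAR123 is an enhancer in an intron of Smg6, and HAR123-KO mice lack it after CRISPR-Cas9 editing of C57BL/6J embryos and were compared with WT littermates. All mice were 8 weeks old, the strains were backcrossed to C57BL/6J, and the sex of the sequenced mice and the number of founder lines were not given in the sources used here. Total RNA depleted of rRNA was sequenced from 4 WT and 4 HAR123-KO samples, and since the labels do not tie each sample to its own animal, p-values measure only the spread between these samples, which may be technical.

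Mitochondria keep a small circular genome whose coding genes all make subunits of the respiratory chain and of ATP synthase. Its 2 rRNAs build the mitochondrial ribosome, and its tRNAs serve translation inside the organelle. Both strands are transcribed into long precursors, from which the tRNAs are cut out and thereby free the mRNAs and rRNAs between them. Transcription needs the nuclear-encoded polymerase Polrmt with Tfam and Tfb2m, and mitochondrial RNA is abundant in brain because neurons rely on oxidative phosphorylation.

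The libraries held 13528251 to 17051001 counts, of which 2786320 to 3732172 fell on nuclear protein-coding genes. Lars2 is left out of that number, since its row alone held 4.23% to 4.67% of all counts; whether these reads come from rRNA was not tested. Gm42418, a gene over nuclear rRNA sequence, took 57.5% ± 0.55 (mean ± SD, n = 4) in the WT libraries and 55.9% ± 1.03 in the HAR123-KO libraries (exact permutation p = 0.0571). Mitochondrial genes held 1423948 to 1973249 counts per library. Counting error of the rRNAs and coding genes was therefore small, while that of the tRNAs, with 73 to 136 counts per library in all, was large.

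Mitochondrial rRNAs and mRNAs were slightly more abundant in the HAR123-KO cortex. Of the 37 members, 18 were abundant enough to receive an adjusted p in the DESeq2 fit over all genes, namely the 13 coding genes, both rRNAs and 3 tRNAs. Of these 18, 9 rose and 0 fell at an adjusted p under 0.05 (at an unadjusted p under 0.05, 13 were higher and 0 lower; edgeR called 6 and limma-voom 12). Over all 12758 genes tested, 1.69% were called, 0.972% as higher and 0.713% as lower. Both rRNAs and 7 of the 13 coding genes were among the 9 called. The changes were small, since no member passed an added limit of 0.5 on the absolute log2 fold change, which 0.298% of all tested genes passed together with the adjusted p. In bulk tissue, more mitochondrial RNA per cell cannot be told apart from more cells that are rich in it.

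**Figure D1:**
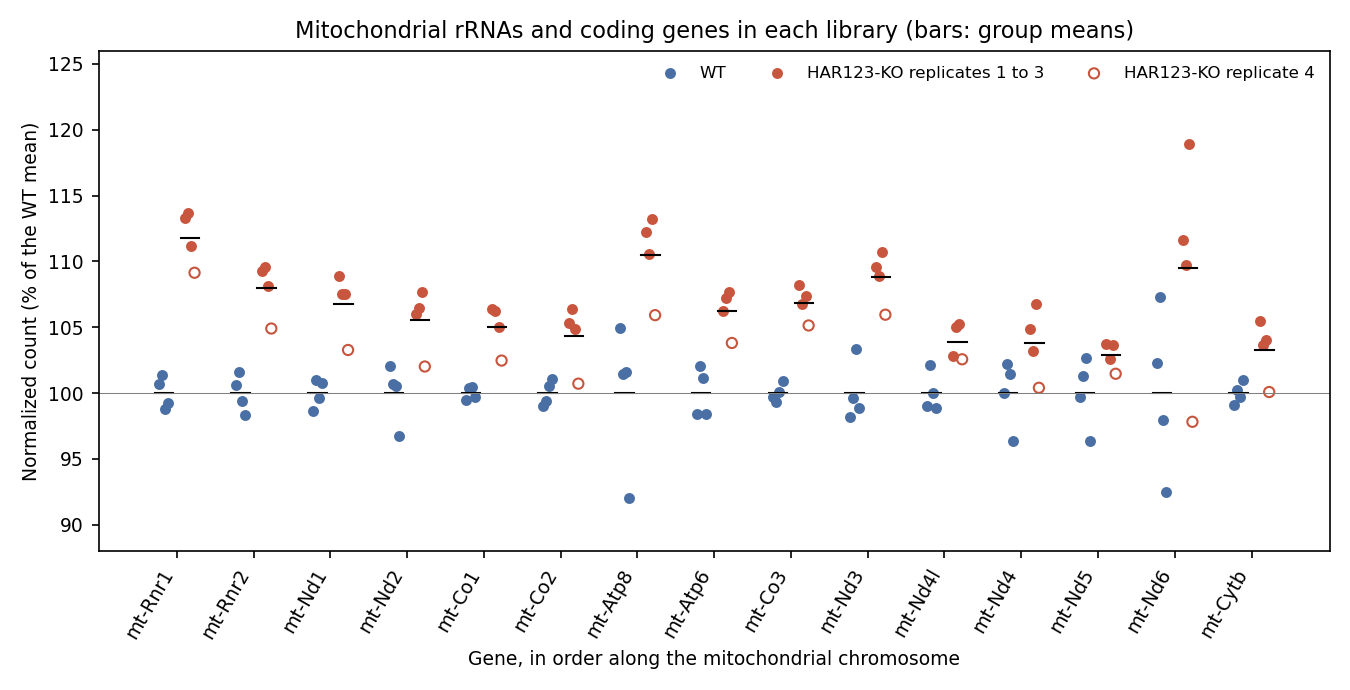
Normalized count of the 2 rRNAs and 13 coding genes in each library, as a percentage of that gene's WT mean, with genes in order along the chromosome. All 4 HAR123-KO libraries of mt-Rnr1 lie above all WT libraries, and the open circle, HAR123-KO replicate 4, is the lowest HAR123-KO library for all 15 genes.

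mt-Rnr1 (MT:70-1024 in GRCm38, plus strand) encodes the RNA of the small mitochondrial ribosomal subunit. Its normalized counts were 554288, 558071, 543745 and 546405 in WT replicates 1 to 4, and 623636, 625893, 611965 and 600937 in HAR123-KO replicates 1 to 4. Each HAR123-KO library exceeded each WT library. It rose by 0.16 ± 0.02 (log2 fold change ± SE) with a DESeq2 adjusted p of 7.58e-13, or by 11.8%, which was the largest change among the called members.

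mt-Rnr2 (MT:1094-2675, plus strand) encodes the RNA of the large subunit. WT replicates 1 to 4 had 866090, 874337, 855541 and 846284 normalized counts, and HAR123-KO replicates 1 to 4 had 940024, 942696, 930465 and 902731. The groups did not overlap, and mt-Rnr2 rose by 0.11 ± 0.02 (log2, SE; DESeq2 adjusted p = 4.17e-05), or by 7.95%. The depletion of rRNA before sequencing also acts on mitochondrial rRNA, so these counts are what the depletion left, and its efficiency cannot be told apart from the level in the tissue. Lars2, the abundant nuclear row left out above, moved the other way. It averaged 684037 ± 15318 normalized counts over the 4 WT libraries and 625375 ± 17956 over the 4 HAR123-KO libraries (mean ± SD). It fell by 0.13 (log2), with a DESeq2 adjusted p of 2.75e-05. Whether depletion differed between the genotypes was not tested.

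All 13 coding genes had a positive log2 fold change, with a median of 0.08 and a range of 0.04 to 0.14, corresponding to 2.85% to 10.5%. The median over all tested genes was -0.0017, and 49.4% of them were positive. In 13 of 13 coding genes the lowest HAR123-KO library was replicate 4. Among the 18 tested members the genotypes did not overlap in 9, all of them higher in HAR123-KO. The share of all tested genes without overlap was 4.02% in that direction and 3.65% in the opposite one.

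Subunits of complex I, the NADH dehydrogenase that passes electrons into the chain, are encoded by 7 of the genes, and 3 of them were called higher. mt-Nd1 (MT:2751-3707) had 13051, 13369, 13187 and 13338 normalized counts in WT and 14411, 14227, 14235 and 13669 in HAR123-KO. Every HAR123-KO library exceeded every WT library, and mt-Nd1 rose by 0.09 ± 0.02 (DESeq2 adjusted p = 0.0009). mt-Nd3 had 2564, 2603, 2699 and 2582 normalized counts in WT against 2862, 2844, 2892 and 2767 in HAR123-KO, again without overlap, and rose by 0.12 ± 0.03 (DESeq2 adjusted p = 0.00468). Leaving out WT replicate 1 or HAR123-KO replicate 3 ended the call on mt-Nd3 (DESeq2 adjusted p = 0.0831 and 0.0788). mt-Nd2 was close to the threshold (0.08 ± 0.02, DESeq2 adjusted p = 0.0497), and its libraries overlapped, with 9525 to 10055 normalized counts in WT and 10049 to 10608 in HAR123-KO. When each library was left out in turn, mt-Nd2 was still called in 1 of 8 fits. The call on mt-Nd2 was also lost in edgeR (adjusted p = 0.158). In DESeq2 it was lost with library totals (adjusted p = 0.0969), TMM factors (0.067), nuclear protein-coding scaling (0.059) and no filter (0.109). limma-voom called mt-Nd2 (adjusted p = 0.00169).

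The other 4 complex I genes did not pass the test. mt-Nd4l, mt-Nd4 and mt-Nd5 had log2 fold changes of 0.06, 0.05 and 0.04, with DESeq2 adjusted p values of 0.51, 0.407 and 0.615. mt-Nd4l nonetheless did not overlap between genotypes (3213 to 3317 normalized counts in WT, 3332 to 3419 in HAR123-KO). mt-Nd6 is the only coding gene on the minus strand. It had 984, 1033, 942 and 890 normalized counts in WT and 1074, 1056, 1145 and 941 in HAR123-KO, so that the genotypes overlapped. Its fold change was 0.13 ± 0.07 (log2, SE; DESeq2 adjusted p = 0.629), and without HAR123-KO replicate 4 its adjusted p was 0.0174.

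Complex III, which hands electrons on to cytochrome c, has a single mitochondrial gene. mt-Cytb (MT:14145-15288) ran from 17140 to 17458 normalized counts in WT, and had 18239, 17919, 17987 and 17304 in HAR123-KO. HAR123-KO replicate 4 lay within the WT range, and the log2 fold change of 0.05 ± 0.02 did not pass (DESeq2 adjusted p = 0.393).

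Complex IV, the cytochrome c oxidase that reduces oxygen, has 3 mitochondrial subunits, of which 2 were called higher. mt-Co3 (MT:8607-9390) had 16197, 16146, 16258 and 16403 normalized counts in WT and 17581, 17347, 17450 and 17085 in HAR123-KO. The WT libraries were close together, all HAR123-KO libraries were higher, and the change of 0.10 ± 0.02 had the smallest adjusted p of the coding genes (log2, SE; DESeq2 adjusted p = 3.89e-05). mt-Co1 (MT:5328-6872), the catalytic subunit, had 47438, 47883, 47905 and 47572 in WT and 50730, 50667, 50084 and 48876 in HAR123-KO. These did not overlap (0.07 ± 0.02, DESeq2 adjusted p = 0.00758). The call on mt-Co1 was lost in edgeR (adjusted p = 0.0885), with library totals (0.119) and in 4 of 8 fits without a library. mt-Co2 did not pass (0.06 ± 0.02, DESeq2 adjusted p = 0.13), and HAR123-KO replicate 4, at 17930 normalized counts, fell within the WT range of 17627 to 17990. limma-voom called mt-Co2 (adjusted p = 0.000935), as did DESeq2 without HAR123-KO replicate 4 (adjusted p = 0.00288).

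ATP synthase, also called complex V, has 2 mitochondrial genes, and both rose. mt-Atp8 (MT:7766-7969) had 3011, 2909, 2915 and 2640 normalized counts in WT and 3219, 3171, 3247 and 3038 in HAR123-KO, a change of 0.14 ± 0.03 (log2; DESeq2 adjusted p = 0.00299). mt-Atp6 (MT:7927-8607) had 18596, 19289, 19110 and 18606 in WT and 20073, 20270, 20357 and 19619 in HAR123-KO, a change of 0.09 ± 0.02 (DESeq2 adjusted p = 0.00221). Neither gene overlapped between genotypes. The call on mt-Atp8 was lost without WT replicate 4 (DESeq2 adjusted p = 0.0524) or HAR123-KO replicate 3 (0.0665). That on mt-Atp6 was lost in edgeR (adjusted p = 0.0506), with library totals (0.0563) and without WT replicate 1 (0.0693) or HAR123-KO replicate 3 (0.0552). The end of mt-Atp8 is also the start of mt-Atp6, and the shared 43 bases (MT:7927-7969) are shown because reads over them bear on both counts. The capitals mark the start codon of mt-Atp6 and the stop codon of mt-Atp8.
mt-Atp8 and mt-Atp6 overlap: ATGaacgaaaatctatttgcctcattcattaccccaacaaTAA

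The genes that passed lay in the first stretch of the plus strand. Up to and including mt-Nd3, 7 of 8 plus-strand coding genes passed in DESeq2, and the 8 had a median log2 fold change of 0.09 (0.06 to 0.14). After mt-Nd3, 0 of 4 passed in DESeq2, with a median of 0.05 (0.04 to 0.06). limma-voom called 2 of these 4, mt-Nd4 (adjusted p = 0.0419) and mt-Cytb (adjusted p = 0.00755), and DESeq2 without HAR123-KO replicate 4 called mt-Cytb (adjusted p = 0.043). The summed counts of the first 8 genes were 2.419, 2.401, 2.408 and 2.460 times those of the last 4 in WT replicates 1 to 4, and 2.473, 2.503, 2.455 and 2.476 times in HAR123-KO replicates 1 to 4. HAR123-KO replicate 3 lay just below WT replicate 4, and all other HAR123-KO libraries lay above all WT libraries. This division was made after the values were seen and is given with no test.

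Each scaling that did not rest on the mitochondrial genes themselves gave the same direction. The median log2 fold change of the coding genes was 0.08 with TMM factors and 0.12 with library totals, a scaling that shifted the median of all tested genes to 0.04. When the libraries were scaled on the 13 mitochondrial coding genes, which sets each member against the mitochondrial mRNAs, mt-Rnr1 alone was still called (0.08 ± 0.02, DESeq2 adjusted p = 0.000944). mt-Rnr2 was then at 0.03 ± 0.02 (adjusted p = 0.351), and mt-Atp8 had the largest coding value, 0.06 ± 0.03 (adjusted p = 0.195). By construction, the median coding gene stood near 0 on that scale.

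**Figure D2:**
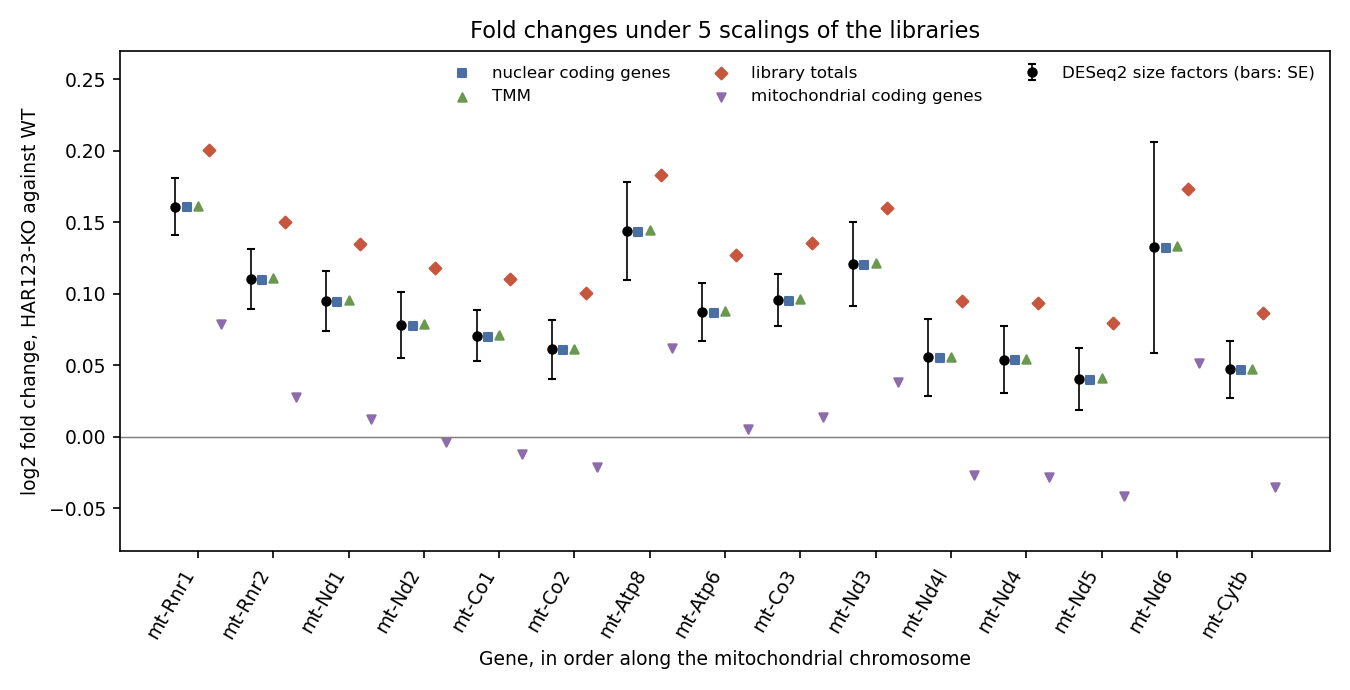
Fold change of the 2 rRNAs and 13 coding genes in HAR123-KO against WT (log2), under 5 ways of scaling the libraries, with the standard error shown for the DESeq2 size factors. The 15 genes lie above 0 under each scaling except that on the mitochondrial coding genes, where mt-Rnr1 stays highest at 0.08.

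As a share of all counts, mitochondrial RNA made up 10.68% ± 0.24 for WT against 11.96% ± 0.45 for HAR123-KO (mean ± SD of 4 libraries). The rRNAs accounted for most of it, with 9.45% ± 0.20 in WT and 10.6% ± 0.40 in HAR123-KO, and the coding genes for 1.23% ± 0.04 and 1.33% ± 0.05. The tRNAs made up 0.000681% ± 0.000107 and 0.000838% ± 4.55e-05. For all members and for the rRNAs, each HAR123-KO library was above each WT library (two-sided exact permutation p = 0.0286, the smallest that 4 against 4 allows). For the coding genes and for the tRNAs 3 of 4 HAR123-KO libraries were (exact permutation p = 0.0571). After adjustment over the 4 classes tested, the exact permutation p was 0.0571 for each of them, so none passed. These shares are affected by the nuclear rRNA reads left in each library.

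Set against nuclear protein-coding counts, the coding genes and rRNAs passed after adjustment and the tRNAs did not. The coding genes had 58.2, 58.7, 58.4 and 57.9 counts per 1000 nuclear protein-coding counts in WT replicates 1 to 4, and 62.0, 61.7, 61.8 and 59.6 in HAR123-KO replicates 1 to 4. All HAR123-KO libraries were higher, by 5.08% in the mean (exact permutation p = 0.0286, adjusted over 4 classes 0.0381). The rRNAs had 453, 455, 442 and 443 in WT and 497, 499, 489 and 478 in HAR123-KO, higher by 9.44% with the same exact permutation p values. The tRNAs had 0.0323 ± 0.0049 for WT against 0.0387 ± 0.0019 for HAR123-KO (mean ± SD of 4 libraries), and the libraries overlapped (exact permutation p = 0.0857).

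**Figure D3:**
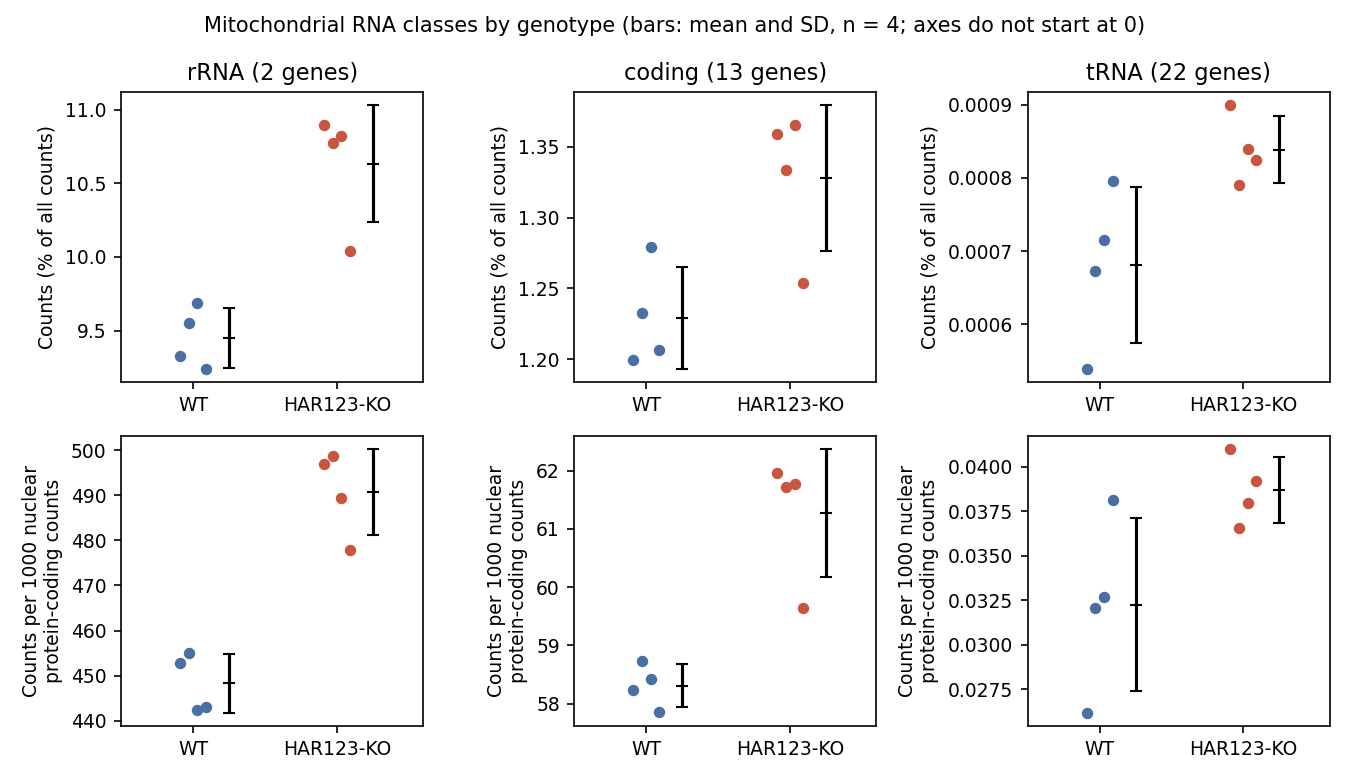
Counts of each mitochondrial RNA class per library, as a percentage of all counts (top) and per 1000 nuclear protein-coding counts (bottom), with mean and SD of 4 libraries per genotype. The rRNAs separate the genotypes on both scales, the coding genes on the lower scale only, and the tRNAs on neither.

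Relative to the mRNAs, the rRNAs were higher in all HAR123-KO libraries. Their counts were 7.78, 7.75, 7.57 and 7.66 times those of the coding genes in WT replicates 1 to 4, and 8.02, 8.08, 7.92 and 8.01 times in HAR123-KO replicates 1 to 4. All HAR123-KO ratios were higher, by 0.06 on the log2 scale. The balance between the rRNAs also differed, with 1.563, 1.567, 1.573 and 1.549 times as many mt-Rnr2 as mt-Rnr1 counts in WT and 1.507, 1.506, 1.520 and 1.502 times in HAR123-KO. All HAR123-KO ratios were lower, by a log2 difference of -0.05. Both ratios reached the smallest exact permutation p of 0.0286, and neither passed after adjustment over the 6 ratios tested (adjusted exact permutation p = 0.0857). The ratio of tRNA to coding counts differed by 0.20 on the log2 scale (exact permutation p = 0.143), and by 0.02 (p = 0.857) from the mean of log2 counts per gene. It was 0.11 without WT replicate 1 and 0.29 without WT replicate 4.

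The 3 ratios tested within the mRNAs did not pass. Complex I against complex IV genes differed by -0.01 on the log2 scale (exact permutation p = 0.743), complex V against complex IV genes by 0.02 (exact permutation p = 0.257; 0.04 and 0.0571 from the mean of log2 counts per gene), and mt-Nd6 against the 12 plus-strand coding genes by 0.06 (exact permutation p = 0.429). All 3 depended on single libraries. The mt-Nd6 difference was 0.022 without HAR123-KO replicate 3, 0.026 without WT replicate 4 and 0.099 without HAR123-KO replicate 4. That of complex V ran from 0.0087 without WT replicate 4 to 0.031 without WT replicate 2. That of complex I ran from -0.019 without WT replicate 4 to 0.0015 without WT replicate 2, and was 0.0063 from the mean of log2 counts per gene. Complex I genes held 34.2% of the mitochondrial coding counts in WT and 34.1% in HAR123-KO. The corresponding values were 9.42% and 9.26% for mt-Cytb, 44.5% and 44.6% for complex IV genes, and 11.9% and 12.1% for the ATP synthase genes.

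Levels per length differed widely between genes that share a precursor. In WT, mt-Co1 was highest at 30873 ± 150 normalized counts per kb (SD, n = 4), followed by mt-Atp6 at 27754 ± 519, mt-Co2 at 26029 ± 251 and mt-Co3 at 20728 ± 142. mt-Cytb followed at 15114 ± 118. mt-Atp8, mt-Nd4 and mt-Nd1 had 14062 ± 781, 13901 ± 359 and 13831 ± 154 normalized counts per kb, and their libraries overlapped. mt-Nd4l (10938 ± 164) and mt-Nd2 (9490 ± 219) were lower. mt-Nd3 (7505 ± 173) and mt-Nd5 (7492 ± 202) could not be separated. mt-Nd6, from the opposite strand, was lowest at 1854 ± 117. The highest level of all 13 genes was 16.7 times that of mt-Nd6, while the 12 plus-strand genes ran from 7492 to 30873. For mt-Atp8 and mt-Atp6 the length includes the bases they share, over which reads may have been assigned to neither.

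**Figure D4:**
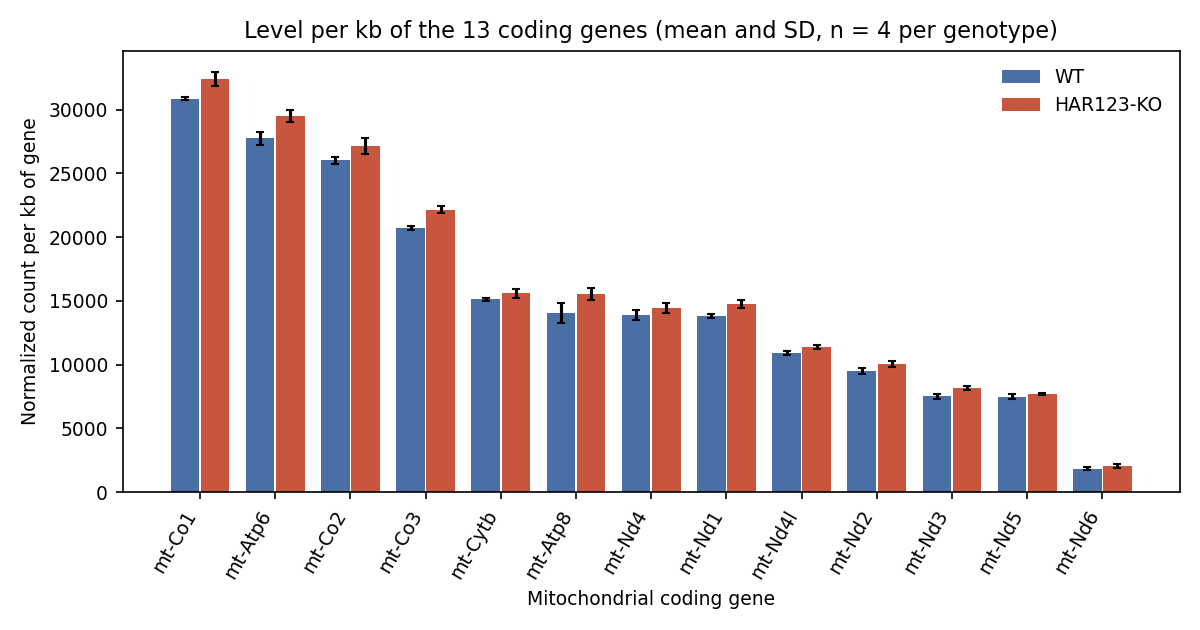
Normalized count per kb of gene for the 13 coding genes, ordered by their WT level, as mean and SD of 4 libraries per genotype. mt-Co1 is highest at 30873 and mt-Nd6 lowest at 1854 in WT, and each HAR123-KO bar is higher than its WT bar.

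The tRNAs were barely covered. They are 59 to 75 bases long, shorter than the 100-base reads, and all 22 together had 904 counts in the 8 libraries. Of these, 736 (81.4%) fell on mt-Ti, mt-Tm and mt-Tw, which carry isoleucine, methionine and tryptophan and surround mt-Nd2. Their sequences are given with that of mt-Td, the tRNA for aspartate and the next of the plus strand by count, because they were the best covered. The capitals mark the anticodon, placed by the letters GAT, CAT, TCA and GTC within a loop of 7 bases.
mt-Ti (MT:3706-3774): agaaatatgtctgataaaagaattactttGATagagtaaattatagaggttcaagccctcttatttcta
mt-Tm (MT:3845-3913): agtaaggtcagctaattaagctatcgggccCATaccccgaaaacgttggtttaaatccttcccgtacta
mt-Tw (MT:4950-5016): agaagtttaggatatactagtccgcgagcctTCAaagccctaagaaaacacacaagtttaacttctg
mt-Td (MT:6942-7011): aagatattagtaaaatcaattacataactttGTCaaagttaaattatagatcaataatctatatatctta

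Raw counts of mt-Tw were 23, 23, 41 and 35 in WT and 39, 34, 46 and 42 in HAR123-KO, and its log2 fold change of 0.36 ± 0.23 did not pass (SE; DESeq2 adjusted p = 0.721). mt-Tm had 20, 35, 35 and 37 counts in WT and 38, 38, 38 and 28 in HAR123-KO (0.11 ± 0.23, DESeq2 adjusted p = 0.978). mt-Ti had 14, 18, 29 and 30 in WT and 18, 26, 28 and 21 in HAR123-KO (-0.01 ± 0.28, DESeq2 adjusted p = 0.998). These 3 overlapped between genotypes. mt-Td had 4 to 8 counts in WT and 8 to 11 in HAR123-KO, which did not overlap once normalized (4.28 to 7.21 and 7.92 to 11.7). It was the 1 tRNA of 22 without overlap, and its unadjusted DESeq2 p was 0.237. Among all tested genes, 4.02% did not overlap in that direction. mt-Tp, for proline, had 2 to 9 counts in WT and 6 to 16 in HAR123-KO. Neither mt-Td nor mt-Tp received an adjusted p. Of the 22 tRNAs, 0 were called by DESeq2, edgeR or limma-voom, and 0 had an unadjusted p under 0.05 in DESeq2. At this depth a change of the tRNAs by the size seen in the mRNAs was not detectable.

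The 4 plus-strand tRNAs with the most counts had free space beside them on the same strand. mt-Tw has 311 bases to the next plus-strand gene on its right, mt-Ti 70 bases on its right, mt-Tm 70 bases on its left and mt-Td 69 bases on its left. The annotated genes in these gaps are minus-strand tRNAs. The other plus-strand tRNAs that lie between plus-strand genes had at most 3 bases on either side and at most 2 counts. mt-Tf and mt-Tt, next to the noncoding region, had 1 and 12 counts. The 14 plus-strand tRNAs held 817 counts and the 8 minus-strand tRNAs 87, of which 64 were on mt-Tp. On the minus strand, mt-Tp has 1216 bases to the next minus-strand gene on its left. mt-Ts1, mt-Ta, mt-Te, mt-Tq and mt-Ty also have gaps of 1175 to 6613 bases on at least 1 side, and held 0 to 9 counts. mt-Tc and mt-Tn have at most 32 bases on either side and held 2 and 1 counts. Whether free space bears on the counts was not tested. Between them, 6 tRNAs were at 0 in all libraries (mt-Ty, mt-Tk, mt-Tg, mt-Tr, mt-Th and mt-Ts2), which for a library allows up to 3 counts by counting error alone.

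Several coding genes have copies in the nuclear genome. Matching the mitochondrial transcripts to all other annotated transcripts found 11 of them, of which 7 near-identical copies lie in a row on chromosome 1 (1:24611535-24616197, GRCm38). Gm28661, Gm28437, Gm28438 and Gm10222 copy mt-Co2, mt-Co3, mt-Nd3 and mt-Nd4l over nearly their whole length, and their counts were 98.7% to 100.2% of those of the mitochondrial gene in every library. How reads that match both places were assigned was not tested, so the counts of these genes and their copies are uncertain. Over the matched bases, mt-Nd3 and Gm28438 differ at 1 position (T3C, counted from the first base of mt-Nd3), in capitals below, and Gm28438 had 98.7% to 99.4% of the mt-Nd3 counts.
mt-Nd3 (MT:9459-9481): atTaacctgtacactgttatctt
Gm28438 (1:24613097-24613119, minus strand): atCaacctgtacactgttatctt

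The copy Gm29216 matches the last 483 bases of mt-Co1 with 1 difference (A1066T, counted from the first base of mt-Co1) and held 29.1% to 31.0% of the mt-Co1 count. Gm28439 covers the first 876 of 1378 bases of mt-Nd4 and held 50.6% to 52.4%. Gm10925, a copy of mt-Atp6, held more than its source, 123.9% to 125.3% in each library. The 43 bases printed above are annotated to both mt-Atp8 and mt-Atp6 on the mitochondrial chromosome, while on chromosome 1 no copy of mt-Atp8 was matched beside Gm10925. The diverged copies on chromosomes 2 and 13 held 0% to 3.48%. Since reads may be shared, fold changes of the chromosome 1 copies are not taken here as an independent measurement.

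**Figure D5:**
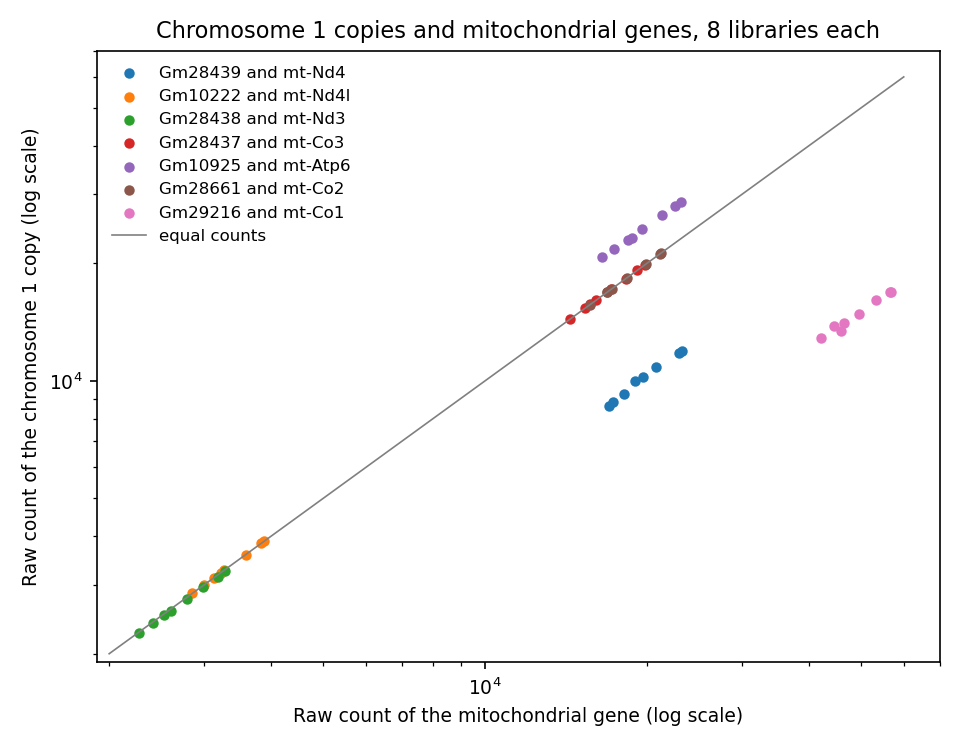
Raw count of each of the 7 chromosome 1 copies against that of the mitochondrial gene it matches, in 8 libraries each, on log axes, with the line of equal counts. The copies of mt-Co2, mt-Co3, mt-Nd3 and mt-Nd4l lie on the line, that of mt-Atp6 above it, and the partial copies of mt-Co1 and mt-Nd4 below it.

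The nuclear genes that make, process and use these RNAs were read out from the same fit. Of 17 listed genes of mitochondrial transcription and replication, 11 were tested and 0 were called by DESeq2, edgeR or limma-voom, with a median log2 fold change of -0.07. Polrmt, the RNA polymerase, had 91.19, 103.0, 123.7 and 109.1 normalized counts in WT and 82.93, 79.87, 95.96 and 96.78 in HAR123-KO. These overlapped, and Polrmt was the 1 gene of the list with an unadjusted p under 0.05 (-0.27 ± 0.13, DESeq2 adjusted p = 0.535). Tfam, which packages mitochondrial DNA and helps to start its transcription, averaged 81.8 ± 7.6 for WT against 71.6 ± 6.1 for HAR123-KO (mean ± SD of 4), with a log2 fold change of -0.19 ± 0.15 (DESeq2 adjusted p = 0.845). Tfb2m, which opens the promoter, averaged 72.2 ± 9.3 and 62.7 ± 12.8 (-0.21 ± 0.17, DESeq2 adjusted p = 0.848).

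Of 35 genes of mitochondrial RNA processing and stability found in the table, 34 were tested and 0 were called by any of the tools, with 0 at an unadjusted p under 0.05 in DESeq2 and a median of -0.01. Of 17 mitochondrial aminoacyl-tRNA synthetases, which load the mitochondrial tRNAs, Lars2 alone was called, at the abundance given above. Their median log2 fold change was 0.09, with 10 of 17 positive and 1 higher at an unadjusted p under 0.05. This was Fars2 (0.37 ± 0.18, DESeq2 adjusted p = 0.48), named after its values were seen. The 70 nuclear-encoded subunits of the respiratory chain and ATP synthase had a median of 0.01, with 0 called by any of the tools and 3 at an unadjusted p under 0.05 in DESeq2. The share called over all tested genes was 1.69%, so that a count of 0 is near the background. The standard errors of these 70 genes were 0.03 to 0.19, and for most of them a change of 0.08, the median of the mitochondrial coding genes, was not detectable.

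Markers of several cell types differed between the genotypes in the same libraries. For the calls given here, the share over all 12758 tested genes was 1.69%, with 0.972% higher and 0.713% lower. The summed normalized counts of 14 choroid plexus markers were 968 to 1019 in WT and 1911 to 2025 in HAR123-KO, and 11 of the 14 received no adjusted p. The others, Enpp2, Ttr and Kl, were called higher, Kl with a mean of 9.15 in WT and 35.98 in HAR123-KO and so above the filter only through HAR123-KO. Most of the WT sum was Enpp2 (889 ± 24 in WT, 1197 ± 46 in HAR123-KO, mean ± SD). Ttr had 68.2 ± 5.1 in WT and 641 ± 19 in HAR123-KO. The summed counts of 10 striatal projection neuron markers were 4337 to 4492 in WT and 5758 to 5945 in HAR123-KO, with 8 of 10 higher. Those of 8 oligodendrocyte markers were 15160 to 15670 and 17260 to 17570, with 4 of 8 higher. Sums were lower in HAR123-KO for 8 cortical excitatory neuron markers (6369 to 6612 in WT, 5784 to 6142 in HAR123-KO, 2 of 8 called lower), 8 astrocyte markers (21770 to 22370, 20090 to 20690, 3 of 8) and 8 endothelial markers (446 to 488, 355 to 369, 1 of 8). Most of the astrocyte sum was Slc1a2 (18760 ± 247 in WT, 17454 ± 209 in HAR123-KO, mean ± SD), while Gfap had a log2 fold change of 0.16 (DESeq2 adjusted p = 0.558). Sums were also lower for 5 red blood cell markers (1523 to 1681, 1238 to 1302, 4 of 4 tested), while 8 microglia markers had 873 to 970 and 842 to 875 with 0 of 7 called by DESeq2, edgeR or limma-voom and 0 at an unadjusted p under 0.05. No marker of these lists was at 0 in all libraries. Their part in the rise of the mitochondrial RNAs was not tested.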

How the data were processed

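Raw counts per gene were deposited for 8 libraries. Per the methods and labels, the authors removed rRNA, made directional paired-end libraries, aligned reads with STAR 2.5.2b to GRCm38 (Ensembl 96) and summed exon counts with featureCounts. Strand and multiple-match settings were not given in the sources used here. The table had 0 unused value columns. Symbols for all 55536 identifiers, sequences and coordinates (1-based) came from GENCODE M21 (GRCm38). Nuclear copies were sought with blastn 2.17.0 among annotated transcripts (at least 95% identity over 100 bases), in place of the genome.

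The members, lists and tests were chosen with earlier results of these data known. The named genes were all members, with Polrmt, Tfam, Tfb2m, Lars2, Gm42418 and the nuclear copies, and Fars2, Slc1a2, Gfap, Enpp2, Ttr and Kl were named after their values were seen. Groups and replicate numbers came from the titles. DESeq2 1.42.0 (R 4.3.3; Wald test, median-of-ratios size factors, genotype only, Benjamini-Hochberg over genes kept by a filter tuned to 0.1) was the main test, with calls at an adjusted p under 0.05. The filter left genes with a mean under 17.6 normalized counts without an adjusted p. edgeR 4.0.16 (quasi-likelihood) and limma 3.58.1 (voom) were alternatives, with other scalings, a minimum of 10 counts in 4 libraries, no filter, fold limits, a replicate block and leaving out each library. A filter tuned to 0.05 and shares without nuclear copies were chosen after seeing the data. Shares and ratios were compared by two-sided exact permutation over 70 assignments. Methods were tested on simulated data. Fold changes and levels cover counting error and the spread between 4 samples per genotype.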

Additional observations from a re-analysis of the deposited data

Results flagged for a closer look

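HAR123-KO replicate 4 stood apart from the other HAR123-KO libraries in 3 of the 64 groups of 4 libraries examined with Dixon's criterion, where chance gives about 3.2. Its mitochondrial share of all counts was 11.3% (replicates 1 to 3 had 12.11% to 12.26%). Its mitochondrial rRNA share was 10.04% (others 10.78% to 10.9%). Its mitochondrial coding genes had 59.64 counts per 1000 nuclear protein-coding counts (others 61.72 to 61.96). On each of these measures it remained above all WT libraries. The rRNA share is part of the mitochondrial share, so these shares are not separate signs. Both also depend on Gm42418, which held 57.4% of the counts in HAR123-KO replicate 4 and 55.1% to 55.7% in replicates 1 to 3. It was also the lowest HAR123-KO library for the 15 rRNA and coding genes, and without it 12 members were called in place of 9, while the share called over all genes tested went from 1.69% to 2.59%.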

How the results depend on the processing

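The direction of the rRNAs and coding genes did not change with the test, the filter, TMM factors, nuclear protein-coding scaling or library totals, and of the 9 called members mt-Nd1, mt-Co3, mt-Rnr1 and mt-Rnr2 were called in all 8 fits that left out a library. Called members ranged from 4 to 12 over those fits, called coding genes from 2 to 10, and the lowest counts came without HAR123-KO replicate 3 (4 and 2) and without WT replicate 1 (5 and 3). The share called over all genes ran from 0.714% to 2.59% in the same fits. edgeR and library totals each called 4 coding genes, and with library totals the coding median was 0.1178. Scaling on the mitochondrial coding genes left 1 called member, 0 coding genes and 1 rRNA, turned the coding median to -0.004059 and 7 of 13 coding genes below 0 (mt-Co1 -0.01179, mt-Nd2 -0.004059, mt-Co2 -0.02139, mt-Nd4l -0.02671, mt-Nd4 -0.02831, mt-Cytb -0.03541 and mt-Nd5 -0.04184), and raised the called nuclear genes of mitochondrial gene expression from 1 to 3, while the share called over all genes went from 1.69% to 10%. By construction that scaling removes the shared rise. Adding a fold limit of 0.5, or of 1 with an adjusted p under 0.01, left 0 members, 0 coding genes, 0 rRNAs and 0 of those nuclear genes. Without Gm42418, Lars2 and mitochondrial rRNA in the total, the coding share differed by 0.229266 percentage points (exact permutation p = 0.02857).

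No pairing by replicate number was seen: deviations of same-numbered libraries correlated between -0.03 and 0.03 over 9280 genes. Of 8 libraries, 2 correlated best with their own number. Libraries of the same genotype differed little beyond counting error (chi-square per degree of freedom 1.208 to 1.305 for nuclear protein-coding genes). Such deviations could therefore not exclude pairing. With the replicate block 0 members (0 coding genes, 0 rRNAs) and 0 of the nuclear genes were called, while the coding median stayed at 0.08 and 22 genes were called in the whole table. For shares and ratios without a library, only the values were compared, since the two-sided p used here (the smaller tail doubled) cannot fall below 0.0571 at 3 against 4. Depth limits the tRNAs, of which 3 received an adjusted p.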
